A study of Mus musculus with 14 samples.

Results

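The regions described are the 3653 peaks of H3K27ac, at least 1 kb wide, that were called in CTCF-K20R embryoid bodies (EBs) on day 4 and that no wild-type (WT) peak overlapped by even 1 bp (K20R-only peaks). They were selected on measured values, namely the positions and widths in both deposited H3K27ac peak lists, among 45318 peaks of the K20R list and 38982 of the WT list. Autosomes were used, without the segments chr14:40000000-70000000 and chr8:65000000-115000000. On these chromosomes the K20R list held 18928 peaks of 1 kb or more, so the K20R-only peaks made up 19.3% of them. The mirror rule gave 2191 WT-only peaks among 16238 WT peaks of that width (13.5%), and the remaining 15275 K20R peaks, which overlapped a WT peak, are called shared peaks.

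The series compared mouse embryonic stem cells of the line E14Tg2A that carried WT CTCF or CTCF with lysine 20 changed to arginine, which cannot be acetylated, by CRISPR/Cas9 (K20R). Both genotypes were kept as stem cells on inactivated fibroblast feeders with LIF and the 2i inhibitors (day 0) and were then left to form EBs in hanging drops without LIF (day 4). ChIP-seq of CTCF had 2 libraries per genotype and day, and ChIP-seq of H3K27ac had 1 library per genotype, on day 4 only. The labels do not say how many clones a genotype comprised, so genotype and clone cannot be told apart, and with 1 H3K27ac library per genotype no H3K27ac difference has a replicate check.

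H3K27ac is acetylated lysine 27 of histone H3, which CBP and p300 write at active promoters and enhancers. CTCF is a zinc finger protein that binds a long motif, stops loop extrusion by cohesin and so sets which enhancers and promoters can meet. In EBs, stem cells leave pluripotency, pass through an epiblast-like state and begin to form the germ layers, with the primitive streak genes marking early mesoderm.

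The sequences that follow show how CTCF met these regions. Each is a stretch of the GRCm38 plus strand at the CTCF summit of a site in a K20R-only peak, the 19 bp that matched the CTCF motif are in capitals, and each is named for the gene it lies near. The matrix was learned from the strongest WT day 4 peaks. Matches were searched within 100 bp of the summit, and 1% of such sequences shifted by 1 kb passed the threshold. Sites with a motif match were chosen, and 264 of the 536 CTCF sites in K20R-only peaks (49.3%) had one. The first 5 lay in a K20R-only peak among the 10 most significant (Bpifb4) or near a gene of the lists given below, and were called in all 4 CTCF lists of day 4. Kept sites of the same choice without a match, a second one at Bpifb4 and those at Gm10685, Tead4 and Fgf17, are not printed.
Bpifb4, chr2:153953960-153954060: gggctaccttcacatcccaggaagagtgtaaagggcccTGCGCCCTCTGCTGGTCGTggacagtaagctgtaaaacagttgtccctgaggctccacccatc
Dppa5a, chr9:78358189-78358289: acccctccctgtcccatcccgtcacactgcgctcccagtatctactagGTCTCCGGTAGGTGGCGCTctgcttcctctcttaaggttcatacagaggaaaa
Fgf15, chr7:144895964-144896064: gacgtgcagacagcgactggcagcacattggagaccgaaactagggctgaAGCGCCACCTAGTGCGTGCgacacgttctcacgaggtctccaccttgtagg
Fgf8, chr19:45694251-45694351: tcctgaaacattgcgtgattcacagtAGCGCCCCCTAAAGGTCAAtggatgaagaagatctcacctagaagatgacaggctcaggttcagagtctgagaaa
Utf1, chr7:139969447-139969547: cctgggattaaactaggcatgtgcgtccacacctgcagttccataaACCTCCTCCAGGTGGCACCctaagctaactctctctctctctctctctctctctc
The next 4 were among the 5 strongest sites that both WT libraries called and no K20R library did (lost; the other, near Pik3c3, had 25 and 15 reads at its summit), and the last was the one site with a motif match that only both K20R libraries called (gained).
Gatad2b, chr3:90342985-90343085: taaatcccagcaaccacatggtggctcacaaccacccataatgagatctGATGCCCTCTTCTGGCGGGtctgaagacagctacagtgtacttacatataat
Tbl1xr1, chr3:22147671-22147771: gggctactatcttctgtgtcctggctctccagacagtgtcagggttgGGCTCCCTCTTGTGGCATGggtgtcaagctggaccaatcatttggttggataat
Gm26583, chr12:112958462-112958562: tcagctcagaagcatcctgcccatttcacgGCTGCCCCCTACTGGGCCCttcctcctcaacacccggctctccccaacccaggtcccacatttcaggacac
Slc25a18, chr6:120793110-120793210: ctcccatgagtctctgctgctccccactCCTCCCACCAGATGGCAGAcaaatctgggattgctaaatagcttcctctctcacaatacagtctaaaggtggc
Gigyf2, chr1:87342337-87342437: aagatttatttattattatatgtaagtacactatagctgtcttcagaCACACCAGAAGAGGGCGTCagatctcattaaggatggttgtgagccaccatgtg
At the Bpifb4 site the summit pileup, the number of reads stacked at the summit, was 72 and 75 in the WT libraries and 88 and 160 in the K20R libraries. At Dppa5a it was 63 and 64 in WT and 80 and 99 in K20R. Both K20R libraries were above both WT libraries at these sites and at Utf1, which was so at 28.3% of all sites called in all 4 lists, and not at Fgf15 or Fgf8 (26 and 31 in WT, 27 and 41 in K20R). The lost site at Gatad2b had pileups of 31 and 29 in WT, and that at Tbl1xr1 19 and 21, and at both the matched 19 bp lay outside the K20R-only peak, which the CTCF peak overlapped in part. The lost sites at Gm26583 (14 and 24) and Slc25a18 (17 and 18) had their motif inside the region. The gained site at Gigyf2 rested on 7 and 10 reads.

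The acetylation of K20R-only peaks was weak. Their median fold enrichment over background was 3.12 (quartiles 2.96 and 3.35, highest 7.27), against 4.56 for shared peaks and 3.08 for WT-only peaks. The median K20R-only peak stood at the percentile 18.9 of all K20R peaks of 1 kb or more. A −log10 q of at least 5 was reached by 74 (2.03%) of the K20R-only peaks, by 77 (3.51%) of the WT-only peaks and by 52.5% of the shared peaks. The median width was 1351 bp (longest 7497 bp) against 2128 bp for shared peaks, and together the K20R-only peaks covered 5.59 Mb. These values come from the lists that chose the regions, and are a description.

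**Figure D1:**
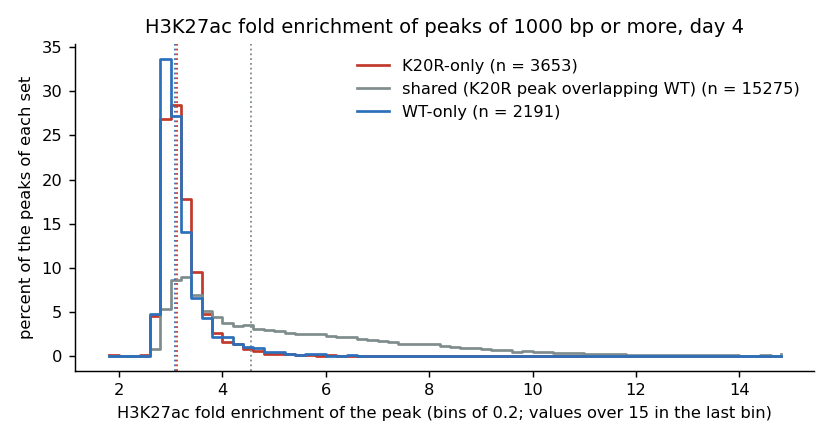
Fold enrichment of H3K27ac (horizontal axis) in peaks of 1000 bp or more, as the percent of peaks of each set per bin (vertical axis), with dotted lines at the medians. The K20R-only and WT-only curves lie over each other near 3, and the shared peaks reach far higher values.

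At the edges of the rule, values on either side were close. The 160 K20R-only peaks less than 20 bp over the limit of 1000 bp had a median fold enrichment of 3.17, and the 146 left out for being up to 20 bp narrower than the limit had 3.05. The 74 K20R-only peaks less than 100 bp from a WT peak had 3.08, and the 111 K20R peaks that overlapped WT peaks by less than 100 bp had 3.12. Many K20R-only peaks lay beside acetylated WT chromatin: a WT peak lay within 1000 bp of 667 (18.3%) and within 5000 bp of 1984 (54.3%), with a median distance of 4162 bp.

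The most significant K20R-only peak lay between genes at chr17:6570491-6571884, 29787 bp from the start site of Dynlt1c, which encodes a dynein light chain, with a fold enrichment of 7.27 and a −log10 q of 13.4. Next came chr11:98066516-98067871, 13054 bp from Stac2, an adaptor of calcium channels, with 6.08 and 11.3. The third, chr2:153953346-153954793, touched an exon of Bpifb4, a gene of the BPI fold family, with 6.61 and 10.97, and the nearest WT peak was 187492 bp away. The other 7 of the 10 had fold enrichments between 5.35 and 6.16. They lay near Gm40988, over the start of Gm6712, near Gm10685, in an intron of Wt1os, which is antisense to the kidney and gonad factor Wt1, over the starts of Gm12569 and the non-coding Platr20, near 1700023G09Rik, and near Cdk5r2, an activator of the kinase Cdk5. Of these 10 regions, the Bpifb4 and Gm10685 peaks held CTCF in all 4 day 4 lists, the Gm6712 peak in 1 WT list, and the other 7 in none.

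The widest regions were weak ones inside genes. The longest covered 7497 bp, touching exons of Serbp1, an RNA-binding protein (chr6:67280328-67287824), with a fold enrichment of 3.30 and a WT peak only 236 bp away. The next were 5895 bp in an intron of Jarid2, a partner of Polycomb repressive complex 2 (3.22), 5518 bp over exons of Seh1l, a nuclear pore component (3.21), 5085 bp in Stk35, a kinase (3.20), and 5075 bp in Ube3c, a ubiquitin ligase (3.31). None of the 5 widest regions held a CTCF peak in any day 4 list.

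K20R-only peaks were mostly not promoters. A start site lay within 3 kb of 500 (13.7%, 95% Wilson interval 12.6% to 14.8%), against 53.1% of shared peaks and 13.7% of WT-only peaks, and a start site lay inside 4.57%, against 46.2% of shared peaks. Of the K20R-only peaks, 24.0% touched an exon, 44.8% lay in an intron and 17.5% lay between genes. The median distance to a start site was 13199 bp, against 1791 bp for shared peaks and 14569 bp for WT-only peaks. In position, the K20R-only peaks were thus close to their WT mirror set, and both were unlike the shared peaks.

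**Figure D2:**
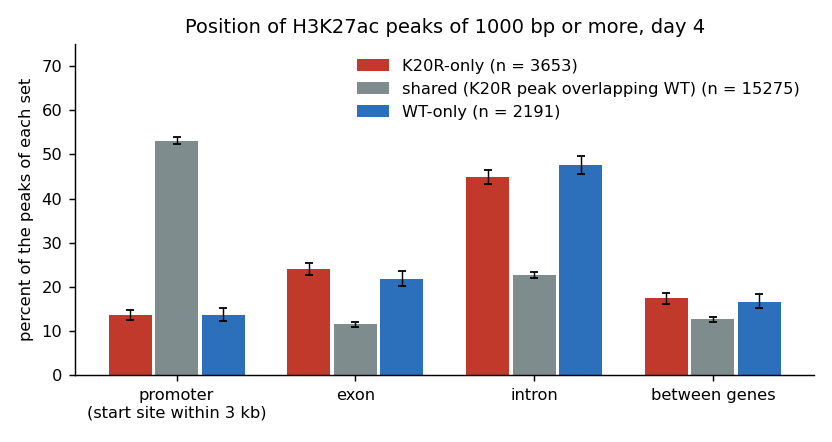
Percent of K20R-only, shared and WT-only H3K27ac peaks of 1000 bp or more (vertical axis) that lie within 3 kb of a start site, otherwise touch an exon, lie in an intron, or lie between genes. Bars give shares and whiskers 95% Wilson intervals; the promoter bar is 53.1% for shared peaks and 13.7% for both other sets.

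Host genes were largely genes whose promoters were acetylated in both genotypes. Away from start sites, 2435 K20R-only peaks lay inside 1769 protein-coding genes, and 2187 of them (89.8%, 88.6% to 90.9%) were in a gene with a start site that had H3K27ac within 3 kb in both lists. The same held for 88.9% of shared and 90.7% of WT-only peaks inside genes, and over all protein-coding genes the share was 49.98%. The median length of the host gene was 67251 bp over K20R-only, 73479 bp over shared and 76024 bp over WT-only peaks, and longer genes can hold more peaks. Of the host genes, 447 held 2 or more K20R-only peaks and 52 held 4 or more. Jarid2 and Kansl1, which encodes a scaffold of a histone acetyltransferase complex, held 7 each, with 1 and 2 WT-only peaks. Both also held shared peaks, 10 in Jarid2 and 3 in Kansl1. Fnbp1, Msi2, Rptor and Tmem131l held 6 K20R-only peaks each, beside 1, 3, 1 and 1 WT-only and 7, 19, 7 and 5 shared peaks. Msi2 is an RNA-binding protein of stem cells and Rptor the mTORC1 scaffold. Rsf1, of a chromatin remodelling complex, held 5 K20R-only peaks, 1 WT-only peak and 0 shared peaks.

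The regions were spread over all autosomes. Their density ran from 8.96 per 10 Mb on chromosome 14 to 31.3 per 10 Mb on chromosome 11. As a share of the K20R peaks of 1 kb or more on each autosome, they ran only from 15.4% on chromosome 7 to 21.5% on chromosome 12. Of 481 windows of 5 Mb with a K20R or WT-only peak of that width, 57 held none, and the median was 5. The fullest window was that from 120 Mb on chromosome 5, with 46 K20R-only and 17 WT-only peaks. It was followed by those ending at 120 Mb on chromosome 11 (42 and 11), 135 Mb on chromosome 4 (36 and 13), 105 Mb on chromosome 11 (35 and 18) and 30 Mb on chromosome 17 (34 and 21). These windows held many K20R peaks of 1 kb or more: 185, 171, 191, 146 and 168, in the same order. The K20R-only peaks made up 24.9%, 24.6%, 18.85%, 24.0% and 20.2% of them, against 19.3% over all.

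**Figure D3:**
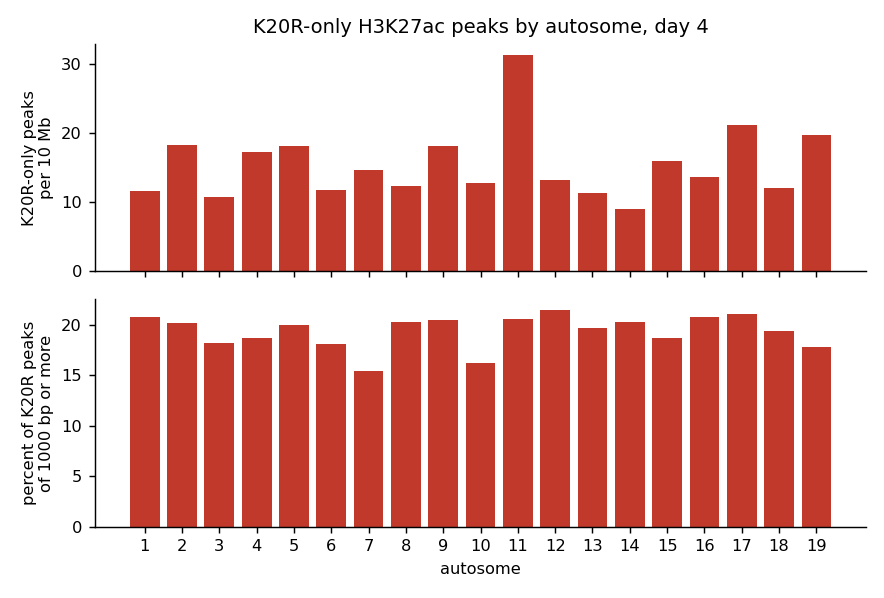
K20R-only H3K27ac peaks by autosome (horizontal axis), per 10 Mb of analysed sequence (upper bars) and as a percent of the K20R peaks of 1000 bp or more on that autosome (lower bars). Density differs from 8.96 to 31.3 per 10 Mb, whereas the share stays between 15.4% and 21.5%.

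Nearby genes were counted over 11 lists of markers, with a gene near a region when a start site lay within 50 kb. Over all protein-coding genes, 26.0% were near a K20R-only peak, 17.0% near a WT-only peak and 63.7% near a shared peak. A K20R-only peak lay within 3 kb of a start site of 1.94% of them. Of the 172 listed genes outside the excluded segments, 35 (20.3%) were near a K20R-only peak and 33 (19.2%) near a WT-only peak. The lists were few genes each and several share a neighbourhood, so no test was made of a list.

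**Figure D4:**
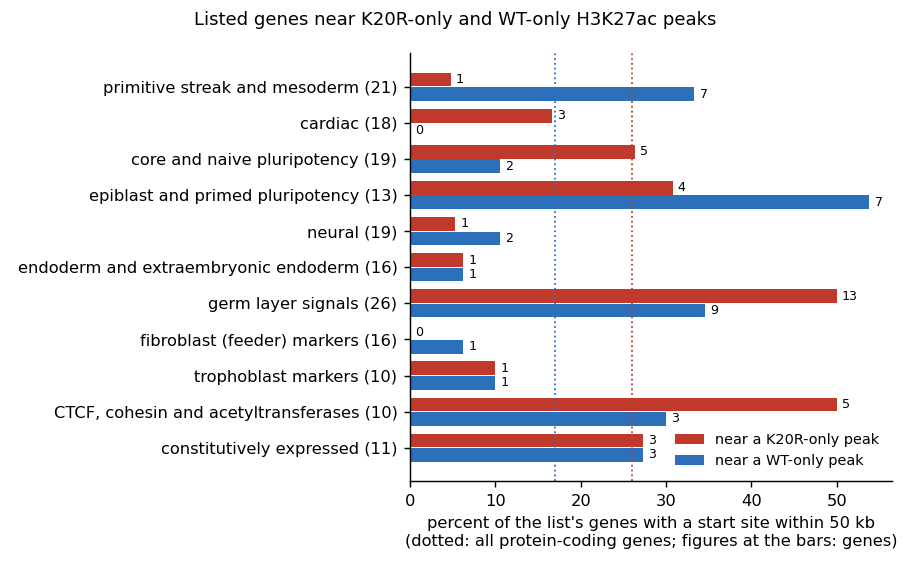
Percent of the genes of each list (horizontal axis; number of genes analysed in parentheses) with a start site within 50 kb of a K20R-only or a WT-only H3K27ac peak, with the number of genes at each bar. Dotted lines give the shares over all protein-coding genes, 26.0% and 17.0%; the germ layer signals stand at 13 of 26 and 9 of 26, and the primitive streak and mesoderm list at 1 of 21 and 7 of 21.

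Of the signals of germ layer formation, the longest list, 13 of 26 were near K20R-only peaks, the same share as in the list of CTCF partners given below, and 9 of 26 near WT-only peaks. Fgf4, a growth factor of the epiblast, had its start site inside one, chr7:144860659-144862102 (fold enrichment 3.598, −log10 q 2.63), with the nearest WT peak 2358 bp away. Fgf15, its neighbour and also a growth factor, had its start inside another, chr7:144895413-144896581 (3.28 and 2.26), which held CTCF in all 4 day 4 lists at pileups of 28 and 26 in WT and 16 and 27 in K20R. The RefSeq promoter of Fgf4 (GRCm38.p6, plus strand), shown because it lay wholly inside the acetylated region, had a GC content of 69.7% and a single word among the 10 searched, the SP/KLF word GGGCGGG, in capitals, which 25.6% of all 32851 promoters of that length held.
Fgf4 promoter, chr7:144861136-144861435: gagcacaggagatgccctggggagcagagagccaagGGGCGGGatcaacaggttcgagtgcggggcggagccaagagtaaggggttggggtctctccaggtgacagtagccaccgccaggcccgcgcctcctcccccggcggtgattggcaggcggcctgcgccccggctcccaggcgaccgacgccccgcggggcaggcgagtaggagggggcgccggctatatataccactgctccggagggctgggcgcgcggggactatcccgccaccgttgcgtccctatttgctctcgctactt
The region 46304 bp from Wnt8a, a Wnt ligand of the streak, had 3.48 and 2.61, and that 40111 bp from Id2, a BMP target, had 3.48 and 2.39. Spry4, a feedback inhibitor of FGF signalling, had one that touched an exon, with 3.35 and 2.18, only 5 bp from a WT peak. The other signals near a region were Nodal, Lefty1, Lefty2, Fgf8, Fgf17, Lef1, Id1 and Smad7, of which both Lefty genes shared 1 region.

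Primitive streak and mesoderm genes were seldom near K20R-only peaks, as were neural and fibroblast genes. Of 21, 1 was near a K20R-only peak (Fgf8, with 3.06 and 1.70, 46360 bp from its start) and 7 were near a WT-only peak. Among these 21 genes, 11 had a promoter peak (H3K27ac of any width, start within 3 kb) in the WT list and 1 in the K20R list. Over all protein-coding genes 52.4% had one in WT and 53.9% in K20R. Fewer cells of a type and less of the mark per cell cannot be told apart in such samples. Of 18 cardiac genes, 1 had a promoter peak in K20R and 1 in WT. K20R-only peaks lay near 3 of the 18 (16.7%), against 26.0% over all protein-coding genes. WT-only peaks lay near 0, against 17.0% over all. The 3 genes were Nppa, an atrial peptide hormone, with 2 regions (the stronger 5.35 and 6.90), Tnnt2, cardiac troponin T (3.59 and 2.67, nearest to Tnni1), and the myosin light chain gene Myl4 (3.13 and 1.83). The Nppa and Myl4 regions were nearest to their neighbours Clcn6 and Cdc27.

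Core and naive pluripotency genes near K20R-only peaks were 5 of 19 (26.3%), at the share over all genes, with 2 of 19 near WT-only peaks (10.5%), and 13 had a promoter peak in K20R and 10 in WT. Tet2, which oxidises methylcytosine, held one in an intron (4.95 and 5.97, nearest WT peak 9487 bp away). Sox2, a core pluripotency factor, had 3 within 50 kb, all nearest to Sox2ot, between 13801 and 20141 bp from its start. Their fold enrichments were 3.57, 3.41 and 3.08. The farthest held CTCF at pileups of 10 and 20 in WT and of 14 in the second K20R library, with no peak in the first. Dppa5a, a marker of naive cells, had 2 (3.68 and 3.17), Fgf4 the 2 given above, and Pou5f1, the gene of OCT4, 1 at 23542 bp (3.42), nearest to Psors1c2.

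Epiblast and primed genes near K20R-only peaks were 4 of 13, against 7 of 13 near WT-only peaks. They were Dnmt3a, a de novo DNA methyltransferase, with 2 regions (3.32 and 3.07), Grhl2 (3.19), an epithelial transcription factor, Tcf7l1 (2.97), a repressor of Wnt targets, and Utf1 (2.93), a chromatin factor of stem cells. The Grhl2 region lay 16264 bp from the start of Grhl2 and was nearest to Gm16137. The Utf1 region lay 24703 bp from the start of Utf1 and was nearest to 6430531B16Rik. This last region held CTCF in all 4 lists at pileups of 56 and 57 in WT and 70 and 86 in K20R. Of 19 neural genes 1 was near a K20R-only peak, Pax6, the eye and forebrain factor, with 4.65 and 5.12 and no WT peak within 77966 bp. Of 16 endoderm genes it was Ttr, which encodes transthyretin (2.73).

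The proteins that load, hold or acetylate at CTCF sites gave 5 of 10 near K20R-only peaks and 3 of 10 near WT-only peaks. Over all protein-coding genes the shares were 26.0% and 17.0%. Of these 10 genes, 9 had a promoter peak in K20R and 9 in WT. Crebbp, the gene of CBP, had 2 K20R-only peaks in its introns (3.25 and 3.00). Rad21, a cohesin subunit, had 2 (3.16 and 2.94), Stag1, another, 1 (3.57, nearest to Slc35g2), and Pds5b and Pds5a, cohesin regulators, 2 (2.96 and 2.82) and 1 (2.84). Constitutively expressed genes stood at 3 of 11 for both sets.

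Markers of other cells that the cultures could hold were given for comparison. Of 16 fibroblast markers, 0 were near a K20R-only peak and 1 near a WT-only peak, and 2 had a promoter peak in K20R and 4 in WT. Of 10 trophoblast markers, 1 was near a K20R-only peak, Tead4, with 2 regions (3.32 and 3.30), and 0 had a promoter peak in K20R and 1 in WT. Whether feeder or other cells had a part in the K20R-only peaks was not tested.

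In median GC content the K20R-only peaks were close to their flanks and to WT-only peaks. Their central 1000 bp had a median GC content of 45.6% (quartiles 42.1% and 49.3%), against 49.5% in shared peaks, 45.5% in WT-only peaks and 44.8% in flanks 10 kb away. Over 3 kb from start sites the values were 45.4% and 45.9% for K20R-only and shared peaks. At least 55% GC with a ratio of observed to expected CpG of at least 0.65 was found in 22 of the K20R-only peaks (0.602%, 0.398% to 0.910%), which was below the 1.69% (1.23% to 2.32%) of WT-only peaks, the 95 of 7306 flanks (1.06% to 1.59%) and the 20.3% of shared peaks. The repeat-masked share had a median of 22.4%, against 14.8% in shared peaks, but over 3 kb from start sites it was 22.9% against 22.7%.

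Words of transcription factor motifs were counted on both strands of the central 1000 bp. The AP-1 word TGANTCA was in 1077 K20R-only peaks (29.5%, 28.0% to 30.98%), against 24.98% of the flanks. Over 3 kb from start sites it was in 30.2% of K20R-only, 30.8% of shared and 28.3% of WT-only peaks. Words of pluripotency and lineage factors stood within a few percent of the flanks. ATGCAAAT, bound by OCT4, was in 4.87% of K20R-only peaks and 5.06% of flanks. ACAATGG, of the SOX family, was in 12.3% and 13.2%. The word of GATA factors, AGATAAG, was in 12.04% and 11.8%. The word of the Wnt effectors LEF and TCF, spelled CTTTGAA, was in 22.2% and 21.1%. AGGTGTGA (T-box) was in 4.35% of K20R-only and 6.30% of WT-only peaks, and TGTTTAC (FOX) in 13.96% and 17.8%. AGGAATG (TEAD) was in 19.2% and 21.3%. The CpG-rich words separated shared peaks from both other sets: GGGCGGG (SP/KLF) was in 10.5% of K20R-only, 9.81% of WT-only and 31.9% of shared peaks, and CCGGAAG (ETS) in 4.65%, 5.61% and 14.4%. Over 3 kb from start sites the gap was smaller, with GGGCGGG in 9.64% of K20R-only and 12.1% of shared peaks and CCGGAAG in 4.35% and 5.42%. These are shares of regions holding letters and say nothing of binding.

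CTCF was called on a minority of the regions. On day 4, 432 and 435 of the 3653 K20R-only peaks overlapped a CTCF peak of the WT libraries (11.8% and 11.9%), and 315 and 375 one of the K20R libraries (8.62% and 10.3%). Both K20R libraries were below both WT libraries, and the second K20R library was the higher of its pair. The difference of means was -88.5 regions (433.5 ± 2.12 in WT, 345.0 ± 42.4 in K20R; SD, n = 2 each; two-sided exact permutation p = 0.333, the smallest that 2 libraries against 2 can give). The deposited K20R lists were shorter, with 41360 and 47463 peaks against 61088 and 61436, and with lists cut to one length the difference was 7.5 regions, in the other direction. Without the first K20R library it was -58.5, and without the second -118.5. On day 0, before the H3K27ac was measured, 612 and 414 of the same regions had a CTCF peak in WT and 425 and 411 in K20R (exact permutation p = 0.667). The first WT list of day 0 was the longest, with 77657 peaks, against 52698 in the second and 52076 and 51905 in K20R.

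Over all 4 lists of day 4, 505 K20R-only peaks (13.8%, 12.7% to 15.0%) had a CTCF peak in at least 1, and 284 had one in all 4. At least 1 list had one at 32.9% of shared and 8.5% of WT-only peaks. Shared peaks were wider (median 2128 bp, against 1351 bp for K20R-only and 1342 bp for WT-only peaks), and wider peaks can overlap more CTCF peaks. Another 65 K20R-only peaks (1.8%) had CTCF in both WT lists and neither K20R list, against 3.2% of shared and 1.6% of WT-only peaks. The reverse was so at 7 (0.19%), against 0.12% of shared and 0 of the WT-only peaks. Such a region need not hold a gained site, of which there were 3 in K20R-only peaks. CTCF was in at least 1 list at 22.0% of K20R-only peaks within 3 kb of a start site, 15.2% of those touching exons, 10.1% of those in introns and 15.2% of those between genes.

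Relative to the shared peaks, the CTCF share of K20R-only peaks did not separate the genotypes. The share with a CTCF peak, divided by that of shared peaks in the same library, was 0.420 and 0.426 in WT and 0.450 and 0.403 in K20R (exact permutation p = 1.0), and the 2 groups overlapped. The greater width of shared peaks lowers this ratio. With CTCF peaks counted per Mb of region, it was 0.670 and 0.678 in WT and 0.765 and 0.652 in K20R, and these groups overlapped as well. Relative to the WT-only peaks, a ratio chosen after the data were seen, the groups did not overlap. K20R-only peaks had a CTCF share 1.63 and 1.65 times that of WT-only peaks in the WT libraries, and 2.197 and 2.227 times in the K20R libraries (difference 0.571, exact permutation p = 0.333, again the smallest possible). The WT-only shares were 7.26% and 7.21% in WT and 3.92% and 4.61% in K20R. The same ratio on day 0 was 1.84 and 2.05 in WT and 2.16 and 2.16 in K20R (difference 0.213, exact permutation p = 0.333). Its lowest value came from the longest day 0 list, of 77657 peaks.

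**Figure D5:**
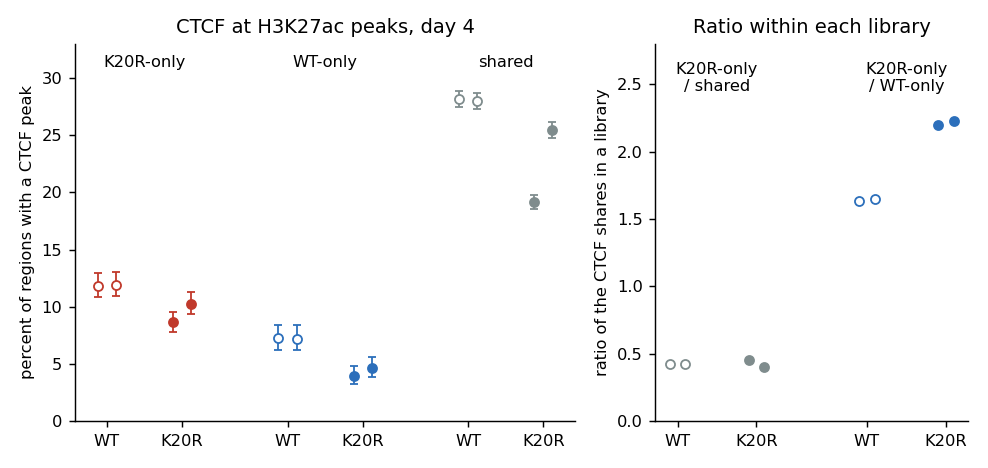
Left, percent of K20R-only, WT-only and shared H3K27ac peaks that overlap a CTCF peak on day 4 (vertical axis), 1 point per CTCF library (open WT, filled K20R) with 95% Wilson intervals. Right, the share of K20R-only peaks divided by that of shared or WT-only peaks within each library; only the ratio to WT-only peaks separates the genotypes, at 1.63 and 1.65 against 2.197 and 2.227.

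Counted by site in the lists as deposited, CTCF loss at K20R-only peaks was as frequent as at shared peaks and less frequent than outside the peaks of all 3 sets. The day 4 lists merged into 64309 sites, of which 536 touched a K20R-only peak. Of these 68 (12.7%, 10.1% to 15.8%) were lost, 3 (0.560%) gained and 330 (61.6%) kept, that is, called in all 4 lists. Over all sites the shares were 15.1% lost, 0.295% gained and 56.0% kept. Of sites in both WT lists, 15.1% (12.1% to 18.7%) were lost at K20R-only peaks, 14.97% (13.99% to 16.0%) at shared peaks, 19.2% (18.8% to 19.5%) outside all 3 sets, 37 of 148 at WT-only peaks (18.7% to 32.5%) and 18.8% over all sites. On day 0, both WT lists held 32 of the 68 lost sites, both K20R lists held 21, and 33 were in no K20R list. For the 330 kept sites these counts were 327, 323 and 2. The day 0 counts were not made over all lost and kept sites, so they cannot be called particular to K20R-only peaks. The 3 gained sites, near AC160993.1, Gclm and Gigyf2, had pileups of 9 and 13, 10 and 10, and 7 and 10 in the K20R libraries, and the first was called in all 4 lists of day 0. Lost, gained and kept counts moved to 9, 10 and 307 with lists of one length. Leaving out the second K20R library gave 112 lost and 7 gained sites, and leaving out the first gave 76 and 20.

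Sites inside repeats made up more of the lost than of the kept sites. In K20R-only peaks the summit base was repeat-masked at 29 of 68 lost sites (42.6%, interval 31.6% to 54.5%) and at 74 of the 330 that were kept (22.4%, interval 18.3% to 27.2%), and over all sites at 34.1% of lost and 25.9% of kept. The word ATGGTGGCT, part of the rodent B2 short interspersed repeat, a family known to carry CTCF motifs, lay within 100 bp of the summit of 13 of 68 lost and 22 of 330 kept sites (19.1% and 6.67%). Over all sites it lay at 12.3% of lost and 4.47% of kept. Of the sequences printed above, those at Gatad2b and Gigyf2 had this word. A CTCF motif match was found at 21 of 68 lost sites (30.9%, interval 21.2% to 42.6%) and at 213 of the 330 kept (64.5%, interval 59.2% to 69.5%), close to 29.5% and 67.2% over all sites. In the central 1000 bp, a match was in 5.15% of K20R-only peaks, 5.92% of shared peaks, 3.06% of WT-only peaks and 4.11% of flanks. It was in 29.1% of the K20R-only peaks with a CTCF peak and in 1.302% of those without. These windows of 1000 bp were longer than the sequences at summits, so the 1% of shifted sequences is no background for them.

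Where CTCF was kept, its pileup at K20R-only peaks did not separate the genotypes. Of the 330 kept sites, 224 had their summit inside the region. The median summit pileup at the 330 kept sites was 46 and 46 reads in WT and 41 and 64 in K20R (difference 6.5, exact permutation p = 1.0), so the K20R libraries fell on either side of WT. The second K20R library was higher everywhere, with medians over all 35992 kept sites of 39 and 39 in WT and 33 and 51 in K20R. Both K20R pileups lay below both WT pileups at 59 sites (17.9%; 18.8% of all kept sites) and above them at 100 (30.3%; 28.3% of all). By rank of fold enrichment within a library, the median kept site of K20R-only peaks stood at the percentile 58.4 and 56.2 in WT and 58.9 and 61.7 in K20R (difference 3.01, exact permutation p = 0.333). It was 1.41 without the second K20R library, 1.89 without the second WT library and 0.960 with summits inside the regions. By rank of −log10 p the difference was -0.906, in the other direction. Both K20R ranks were above both WT ranks at 36.4% of sites (31.1% of all kept sites) and below at 28.2% (31.7% of all). At the 93 kept sites of WT-only peaks these shares were 19.4% and 44.1%, with median ranks of 60.8 and 57.3 in WT and 46.0 and 49.8 in K20R.

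The median rank of K20R-only peaks minus that of WT-only peaks in the same library, a comparison added after the data were seen, was -2.38 and -1.09 percentile points in WT and 12.89 and 11.99 in K20R (difference 14.2, exact permutation p = 0.333). Without the first K20R library the difference was 8.00. With regions that had no H3K27ac peak of the other genotype within 5000 bp, which left 41 WT-only sites, the difference was -1.07.

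Single kept sites moved both ways. The largest rise was at Myrf, a myelin transcription factor, where the site at chr19:10240235-10241066 had pileups of 120 and 120 in WT and 132 and 346 in K20R. The matched motif of this site lay outside the K20R-only peak, which the CTCF peak overlapped in part. Nxph3, a neurexin ligand, followed with 70 and 69 in WT and 86 and 211 in K20R, then Rin1, a Ras effector, with 100 and 107 and 133 and 226, and Ascl4, a skin transcription factor, with 61 and 70 and 78 and 205. In all 4 the second K20R library gave most of the rise. The largest falls were near AC125544.1 (44 and 55 in WT, 15 and 28 in K20R), Ptma, which encodes prothymosin alpha (60 and 54, 26 and 35), Kpnb1, importin beta (31 and 44, 9 and 14), and the GTPase gene Rab42 (43 and 39, 18 and 21). These sites were picked for the size of their change, so that their groups do not overlap is no separate result.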

How the data were processed

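Groups came from the sample labels (14 samples, of which the 4 inputs were not analysed here). The authors trimmed reads with Trim Galore, aligned them with Bowtie2 to mm10, removed duplicates, poorly mapped and blacklisted reads, subsampled CTCF libraries to one depth and called peaks per library with MACS2 (broad for H3K27ac); the input set against each library and any subsampling of H3K27ac were not given in the sources used here. The deposited lists give for each peak its position, a caller's score, not used, a fold enrichment, and −log10 p and −log10 q values, all made by the authors. They hold no read counts; the CTCF summit pileup was solved from fold enrichment and −log10 p, and a whole number matched within 0.01 for 100% of peaks in all 8 lists. The peak names inside the K20R H3K27ac list carry the tag M1, which the labels do not explain; its genotype was taken from the sample labels. Printed coordinates are 1-based, and 0 peaks ended beyond their GRCm38 chromosome.

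Regions overlapped when they shared 1 bp. CTCF sites were merged peaks of the 4 day 4 lists. Start sites came from GENCODE M21 (basic, coding and long non-coding genes), sequences from the RefSeq GRCm38.p6 files. For library values a two-sided exact permutation test was used, whose p with 2 against 2 cannot be below 0.333. Wilson intervals are at 95%, cover counting error only and treat regions as independent. Per the study's methods the CTCF replicates were biological, but the labels do not say whether they came from separate cultures. The p-values depend only on how the values of these libraries are ordered between the genotypes. They do not measure the spread within a genotype.

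The regions, gene lists and words were chosen with earlier results of these data known. Named were the 10 regions with the highest −log10 q, the 5 widest, listed genes within 50 kb (up to 5 per list with values; the constitutively expressed list is given by its counts only), the 5 strongest gained and lost CTCF sites, 4 kept sites with the largest rise and 4 with the largest fall in pileup, and 5 windows. Host genes with most regions, the Fgf4 promoter and the repeat word were chosen after their values were seen. Alternatives covered widths, distances, summits, a stricter −log10 q (5), equal list lengths, rank measure, a replicate block and each library left out. Steps were tested on simulated data, where 100% of 10000 simulated sites had their status recovered. These sites lay far apart and were called in every library of a genotype that had them. The test therefore checked the code, and not how stable the calls are in these data. Scripts ran on Python 3.11.15 with scipy 1.17.1 and pandas 2.3.3, and plots came from matplotlib 3.10.9 over numpy 2.4.6.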

Additional observations from a re-analysis of the deposited data

How the results depend on the processing

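The number of K20R-only peaks rested on the rule: 541 were at least 2000 bp wide and 11202 at least 500 bp, 1669 had no WT peak within 5000 bp, and 1047 remained when both lists kept only peaks with −log10 q of at least 5. The share with CTCF in any list was 12.6% with CTCF −log10 q of at least 5, 10.9% with lists of one length, 10.6% with the summit inside and 68.8% within 10 kb. With lists of one length the K20R minus WT difference in regions with CTCF was 7.5, and sites were 9 lost and 10 gained. The ratio to shared peaks, K20R minus WT, was -0.00197 with lists of one length, -0.00266 with summits inside and -0.0129 within 10 kb. The rank difference was -0.906 by −log10 p, and that against WT-only peaks -1.07 without neighbours within 5000 bp. The cause of these changes was not tested. Leaving out each library gave -0.0198 to 0.0273 for the ratio to shared peaks, -5.5 to 13.5 reads for the pileup difference, 76 to 112 lost sites and 3 to 20 gained sites. The ratio to WT-only peaks kept its direction under every alternative run for it, but CTCF within 10 kb was not among them. The difference ran from 0.392 with lists of one length to 0.989 over 3 kb from a start site. A start site lay within 1 kb of 6.71% and within 10 kb of 41.4%; listed genes near a region were 12 within 10 kb, 56 within 100 kb and 16 as nearest gene; the median GC content was 45.9% over whole peaks and 46.0% without WT peaks within 5000 bp. The labels give both genotypes the same replicate numbers, but these pair nothing known: deviations of same-numbered libraries over kept sites correlated at 0.0425. With the replicate block the differences were unchanged (-88.5 regions, 0.571 for the ratio to WT-only peaks) and no p could fall below 0.5 (exact permutation, sign flips). No H3K27ac value has a replicate, and the depth of the H3K27ac libraries is unknown.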
